A study of Mus musculus with 6 samples.

Results

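The AP-1 transcription factor genes were followed in whole ovaries of mice without the receptor for follicle-stimulating hormone. The 8 members, Fos, Fosb, Fosl1, Fosl2, Jun, Junb, Jund and Atf3, were taken by symbol from the probe annotation, as probe sets with exactly 1 gene symbol, out of the 18194 genes so annotated. They have 12 probe sets, all of which are given below. The study compared 3 FORKO samples (FSH receptor knock-out, described in the labels as a deletion of all receptor variants) with 3 wild-type (WT) samples, each a pool of both ovaries from females aged 8 months, bred from heterozygotes on a 129T2 svEmsJ background, and each on its own Affymetrix Mouse Genome 430 array. Both groups come from the same breeding. The titles call the samples biological replicates, but the labels do not say how many mice gave each. How much of the spread behind each p-value lies between mice is therefore not known. The titles and genotype fields set the groups, while the free-text description of the FORKO samples speaks of wild-type mice.

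AP-1 is a dimer of basic leucine zipper (bZIP) proteins that binds DNA at the element TGANTCA (the TRE) or, in dimers with ATF proteins, at cAMP response elements (CRE). Jun proteins pair with themselves or with Fos proteins, whereas Fos proteins need a Jun partner. Fos, Fosb, Junb, Jun and Atf3 are early response genes whose transcripts appear soon after growth factors, hormones or stress and decay quickly, and Jund is made more steadily. In the ovary, Fos and Jun proteins respond to gonadotropins, and Fosl2 and Jund are known from luteinising granulosa cells of the rat.

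The sequences just before 5 members' start sites are shown because these are the members whose FORKO and WT arrays did not overlap. A CRE is an element through which cAMP, a messenger of the deleted receptor, can act on a gene. Whether cAMP acts on these members was not tested. RefSeq (GRCm38.p6) gave a promoter entry for 7 of the 8 members. The 250 bases upstream are from chr12:85473640-85473889 (plus strand) for Fos, chr7:19310046-19310295 (minus strand) for Fosb, chr8:84978749-84978998 (minus strand) for Junb, chr1:191183334-191183583 (minus strand) for Atf3 and chr5:32136222-32136471 (plus strand) for Fosl2. Capitals mark the CRE core TGACG, or CGTCA where it lies on the other strand.
Fos: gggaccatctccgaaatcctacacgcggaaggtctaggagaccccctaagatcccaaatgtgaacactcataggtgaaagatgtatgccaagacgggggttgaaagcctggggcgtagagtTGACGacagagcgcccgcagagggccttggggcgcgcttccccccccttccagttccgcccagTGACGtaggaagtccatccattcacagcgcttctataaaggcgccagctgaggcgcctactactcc
Fosb: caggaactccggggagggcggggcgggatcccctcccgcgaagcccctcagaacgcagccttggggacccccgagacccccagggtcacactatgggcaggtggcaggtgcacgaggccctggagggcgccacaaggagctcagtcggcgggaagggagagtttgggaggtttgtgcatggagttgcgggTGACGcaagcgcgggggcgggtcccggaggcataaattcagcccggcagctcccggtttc
Junb: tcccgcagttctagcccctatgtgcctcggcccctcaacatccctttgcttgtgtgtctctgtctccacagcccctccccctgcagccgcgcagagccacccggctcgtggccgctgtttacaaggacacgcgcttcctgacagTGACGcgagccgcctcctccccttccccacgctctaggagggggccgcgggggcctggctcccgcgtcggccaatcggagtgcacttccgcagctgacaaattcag
Atf3: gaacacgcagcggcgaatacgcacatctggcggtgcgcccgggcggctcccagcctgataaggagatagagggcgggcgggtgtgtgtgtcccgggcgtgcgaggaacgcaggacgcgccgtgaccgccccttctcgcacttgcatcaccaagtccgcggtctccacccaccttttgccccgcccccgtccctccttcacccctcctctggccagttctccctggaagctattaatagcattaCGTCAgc
Fosl2: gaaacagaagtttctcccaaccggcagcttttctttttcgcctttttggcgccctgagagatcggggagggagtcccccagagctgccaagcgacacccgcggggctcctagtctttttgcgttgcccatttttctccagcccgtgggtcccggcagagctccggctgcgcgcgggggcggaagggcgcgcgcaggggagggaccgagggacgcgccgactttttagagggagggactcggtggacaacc
The CRE core lies 66 to 62 and 129 to 125 bases upstream in Fos, 60 to 56 in Fosb, 106 to 102 in Junb and 7 to 3 in Atf3. Over both strands, the 4 members Fos, Fosb, Junb and Atf3 held it, and the windows of Fosl2, Jun and Jund did not. It was found in 17.8% of all 32851 promoter windows of this length. The full CRE TGACGTCA, which contains this core, was in 1.55% of them, the TRE TGANTCA in 6.75% and the CArG box, bound by serum response factor, in 1.47%, and none of these 3 was in the window of a member. The motifs were chosen with the sequences in view, a match is not a bound site, and elements farther upstream were not searched.

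The values are MAS5 signals, 1 per probe set, scaled so that the arrays share 1 trimmed mean. Arrays give no counts, and their number limits the precision. Of 45101 probe sets, 22506 were bright enough to be tested with limma (a mean scaled signal of at least 20.4); 372 of them (1.65%) differed at an adjusted p of 0.05, 238 (1.06%) higher and 134 (0.595%) lower in FORKO ovaries. The share of higher calls was 64.0%, against 50.6% with arrays scaled to the same median and 84.1% with arrays scaled to the bacterial spikes, which put the median change of all probe sets at 0.15 instead of -0.010 on the log2 scale. The deleted gene, Fshr, read 1.20, 11.2 and 11.7 on FORKO arrays 1, 2 and 3, against 99.6, 59.4 and 119 on WT arrays 1, 2 and 3 (limma adjusted p = 0.0102, 0.0537 with WT replicate 1 left out and 0.0595 with WT replicate 3 left out). Whether its probe set matches deleted sequence is not known here. FORKO replicate 1 stood apart: its log2 signals correlated at 0.954 with each of the other FORKO arrays, against 0.970 between those and 0.967 to 0.968 among WT arrays. Results are therefore also given without it. Transcripts known from ovarian cells were present, with 10 of 11 granulosa and 10 of 11 oocyte markers above the dim filter. In bulk tissue, fewer cells of a type and less RNA per cell cannot be told apart.

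Among the AP-1 genes, Fos was higher and Fosl2 lower in FORKO ovaries. Of the 12 probe sets 6, from 5 genes, were bright enough to be tested. Of these 5 genes, Fos rose, Fosl2 fell, and Atf3, Jun and Jund did not pass, beside 2.14% of 11199 genes that passed (1.30% higher and 0.839% lower). The median change of the 5 genes was 0.19, against -0.020 for all genes tested. Without FORKO replicate 1, Fos and Fosl2 were again the members that passed. The other members, Fosb, Fosl1 and Junb, lay below the dim filter, Junb just under it with a mean of 19.1 over the 6 arrays. Counting the dim probe sets, 6 of the 12 had groups that did not overlap, as did 16.1% of all probe sets: 4 were higher (8.40% of all probe sets) and 2 lower in FORKO ovaries (7.70%).

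**Figure D1:**
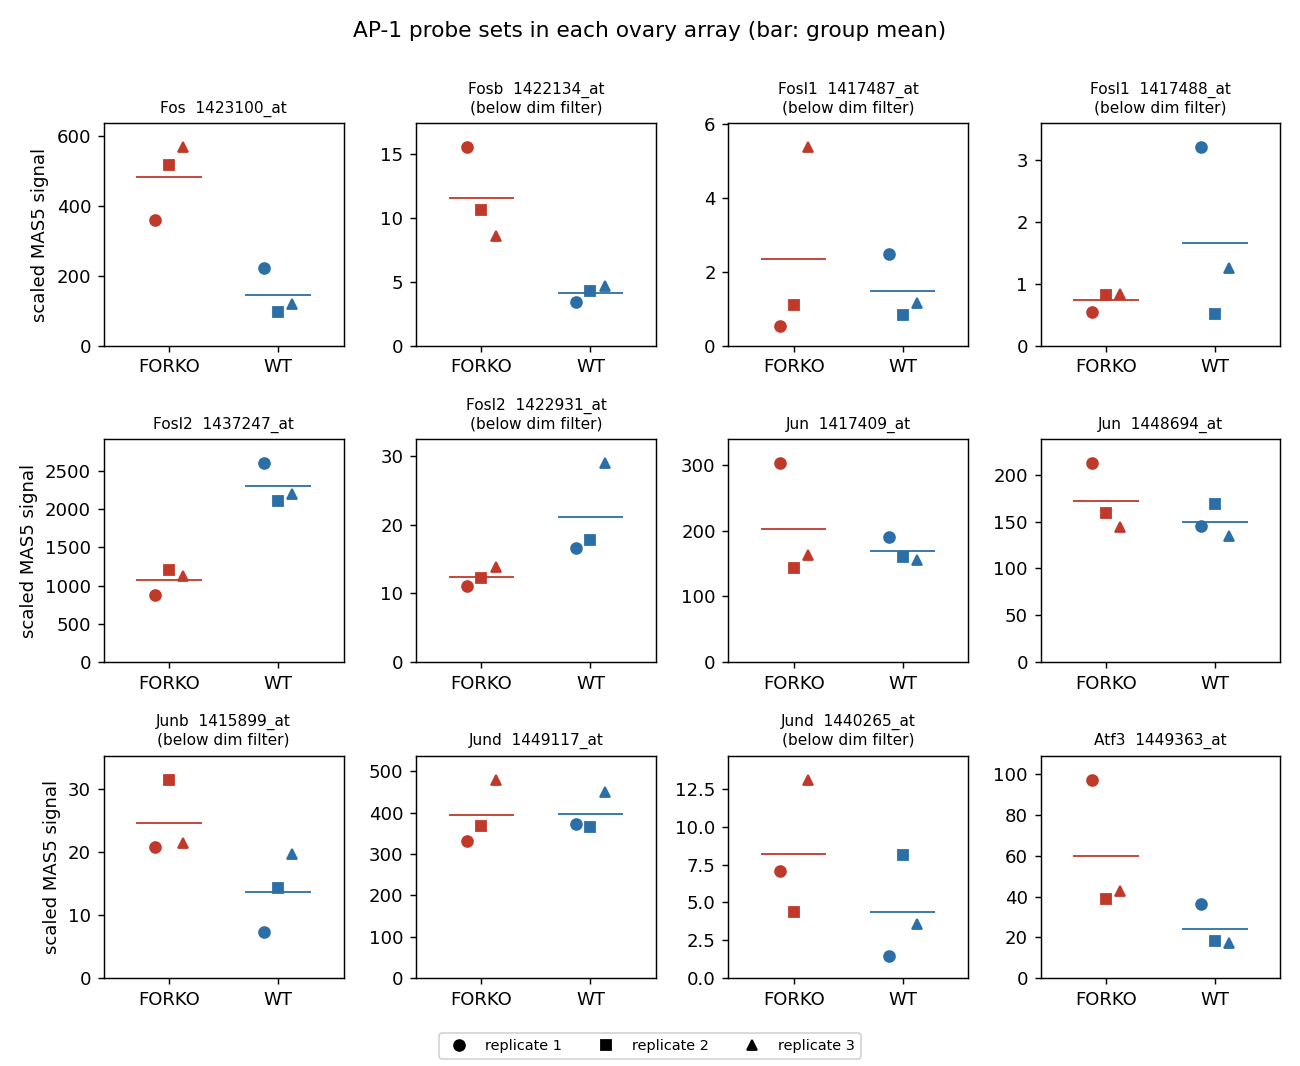
Scaled MAS5 signal (linear axis from 0, 1 panel for each of the 12 AP-1 probe sets) on the 3 FORKO and 3 WT arrays, with the marker giving the replicate number and the bar the group mean. All 3 FORKO arrays lie above all WT arrays for Fos, Fosb, Junb and Atf3 and below them for both Fosl2 probe sets.

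Fos, the founding member of the family and a partner of Jun proteins, read 359, 517 and 568 on FORKO arrays 1, 2 and 3, against 223, 95.5 and 118 on WT arrays 1, 2 and 3. The lowest FORKO array was replicate 1 and the highest WT array was also replicate 1, and the groups did not overlap. The mean signal was 481 ± 109 in FORKO and 146 ± 68.1 in WT ovaries (SD, n = 3 each), a ratio of 3.31. Taken as log2(signal + 5.73), FORKO minus WT, the change was 1.75 ± 0.30 (SE; limma adjusted p = 0.0234), a scale on which changes of dim probe sets come out too small. Permuting the 6 arrays gave an exact two-sided p of 0.1, which is the least that 3 against 3 allows. The change was 1.95 without FORKO replicate 1 (limma adjusted p = 0.00188). Fos no longer passed without FORKO replicate 2 (limma adjusted p = 0.0558), FORKO replicate 3 (0.082), WT replicate 2 (0.106) or WT replicate 3 (0.105), with changes of 1.51 to 1.69.

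Fosb, whose product is a Fos relative made by the same kinds of stimuli, was dim on every array. It read 15.5, 10.6 and 8.55 on FORKO arrays 1, 2 and 3, against 3.42, 4.27 and 4.66 on WT arrays 1, 2 and 3. The groups did not overlap, and the means were 11.6 ± 3.58 in FORKO and 4.12 ± 0.63 in WT ovaries (SD, n = 3 each). With no dim filter its change of 0.79 did not pass (limma adjusted p = 0.339). Fosl1, which encodes Fra-1, stayed near the bottom of the signal range. Its probe set 1417487_at read 0.547, 1.09 and 5.39 on FORKO arrays, against 2.49, 0.833 and 1.16 on WT arrays. The other, 1417488_at, read 0.547 to 0.845 on FORKO arrays and 0.521 to 3.22 on WT arrays. The groups overlapped on both, and at these signals no change in either direction could be read.

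Fosl2, which encodes Fra-2, fell. Its bright probe set, 1437247_at, read 877, 1202 and 1126 on FORKO arrays 1, 2 and 3, against 2597, 2103 and 2195 on WT arrays 1, 2 and 3. Every FORKO array was below every WT array, and FORKO replicate 1 was the lowest. The mean was 1069 ± 170 in FORKO and 2298 ± 262 in WT ovaries (SD, n = 3 each), a signal 2.15 times as high in WT. On the log2 scale Fosl2 changed by -1.11 ± 0.16 (SE; limma adjusted p = 0.0132; exact permutation p = 0.1). It was -0.97 without FORKO replicate 1 (limma adjusted p = 0.00325), and the call was lost without WT replicate 1 (0.062), WT replicate 2 (0.0564) or WT replicate 3 (0.0586), each a limma adjusted p with changes of -1.17 to -1.02. The dim probe set of Fosl2, 1422931_at, read 11.0, 12.2 and 13.8 on FORKO arrays, against 16.6, 17.7 and 28.9 on WT arrays. It also did not overlap between the groups, and with no dim filter its change of -0.54 did not pass (limma adjusted p = 0.584).

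**Figure D2:**
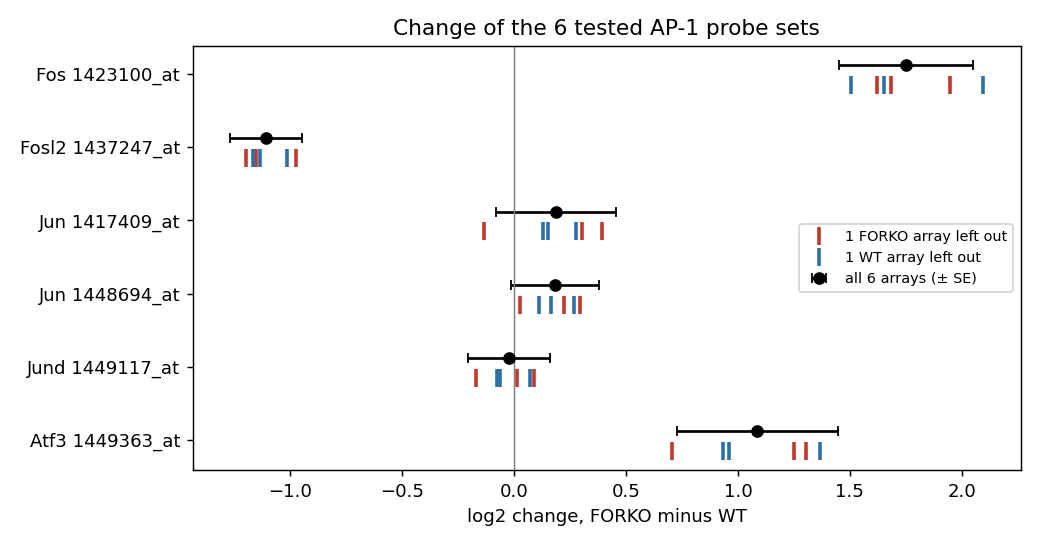
Log2 change, FORKO minus WT, of the 6 tested AP-1 probe sets (rows), with the value from all 6 arrays and its SE as a black point and the values with 1 FORKO or 1 WT array left out as coloured ticks. Fos stays between 1.51 and 2.09 and Fosl2 between -1.20 and -0.97, while the ticks of Jund and of 1 Jun probe set fall on both sides of 0.

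Jun, a partner with which Fos and Fosl2 proteins bind DNA, was measured by 2 bright probe sets. On 1417409_at it read 303, 143 and 163 on FORKO arrays 1, 2 and 3, against 191, 159.7 and 155 on WT arrays 1, 2 and 3. On 1448694_at it read 212, 159.7 and 144 on FORKO arrays, against 145, 169 and 135 on WT arrays. Both probe sets were highest on FORKO replicate 1, and the other 2 FORKO arrays lay within or near the WT range, so the groups overlapped. The changes were 0.19 ± 0.27 and 0.18 ± 0.20 (SE; limma adjusted p = 0.817 and 0.74). Without FORKO replicate 1 they were -0.13 and 0.025.

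Junb, a Jun protein that is usually a weaker activator than Jun, read 20.8, 31.5 and 21.4 on FORKO arrays 1, 2 and 3, against 7.26, 14.3 and 19.7 on WT arrays 1, 2 and 3. The groups did not overlap, but the lowest FORKO and the highest WT array were close. The means were 24.6 ± 5.98 in FORKO and 13.7 ± 6.23 in WT ovaries (SD, n = 3 each), and with no dim filter the change of 0.67 did not pass (limma adjusted p = 0.522). Jund read 332, 369 and 479.7 on FORKO arrays, against 373, 366 and 450.2 on WT arrays. The groups overlapped, with means of 393 ± 77.1 in FORKO and 396 ± 46.7 in WT ovaries (SD, n = 3 each). The change of Jund was -0.022 ± 0.18 (SE; limma adjusted p = 0.974), and it was 0.15 with spike scaling. Its dim probe set, 1440265_at, read 4.38 to 13.1 on FORKO arrays and 1.45 to 8.12 on WT arrays.

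Atf3, a stress-induced bZIP protein that pairs with Jun and as a homodimer represses transcription, read 97.2, 38.8 and 42.8 on FORKO arrays 1, 2 and 3, against 36.2, 18.1 and 17.5 on WT arrays 1, 2 and 3. FORKO replicate 1 was the highest array, and the gap between the groups was small, since FORKO replicate 2 was close to WT replicate 1. The means were 59.6 ± 32.6 in FORKO and 23.9 ± 10.6 in WT ovaries (SD, n = 3 each). The difference of Atf3 on the log2 scale was 1.09 ± 0.36 (SE), which did not pass (limma adjusted p = 0.198). With the replicate number as a block Atf3 passed (limma adjusted p = 0.04, where 3.07% of all probe sets passed). Without FORKO replicate 1 the change was 0.71 (limma adjusted p = 0.275).

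**Figure D3:**
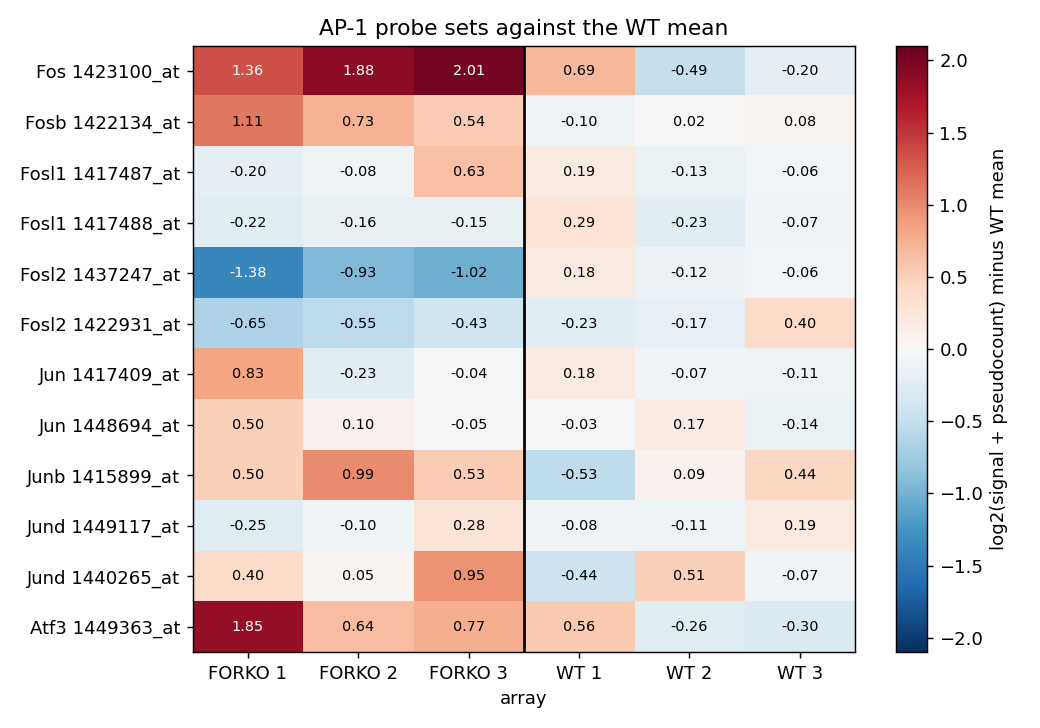
Log2(signal + 5.73) of each AP-1 probe set (rows) on each array (columns) minus the mean of the WT arrays, with the number printed in each cell. Fos is highest on FORKO arrays 2 and 3 (1.88 and 2.01), whereas Atf3 (1.85), Fosb (1.11) and Jun (0.83 and 0.50) are highest and Fosl2 (-1.38) lowest on FORKO array 1.

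The members did not share 1 order over the FORKO arrays. Fos was lowest on FORKO replicate 1, at 1.36 above the WT mean on the log2 scale, against 1.88 and 2.01 on replicates 2 and 3. Atf3 stood at 1.85 on replicate 1, against 0.64 and 0.77, and Fosb at 1.11, against 0.73 and 0.54. Junb was highest on replicate 2, at 0.99, against 0.50 and 0.53 on replicates 1 and 3. Among the WT arrays, replicate 1 was highest for Fos (0.69), Atf3 (0.56) and the bright Fosl2 probe set (0.18) and lowest for Junb (-0.53).

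Whether members changed unequally was tested within arrays, against Jund, which takes out most of the effect of array scaling. The difference in log2 signal between Fos and Jund was 0.11, 0.48 and 0.24 on FORKO arrays, against -0.73, -1.88 and -1.88 on WT arrays, so that relative to Jund Fos stood 1.77 higher in FORKO ovaries. For Fosl2 the same difference was 1.39, 1.69 and 1.22 on FORKO arrays, against 2.78, 2.50 and 2.27 on WT arrays, or 1.09 lower on average in FORKO ovaries (mean difference -1.09). Relative to Jund the groups also did not overlap for Fosb (mean difference 0.82) and, barely, Junb (0.70). They overlapped for Atf3 (1.11), Jun (0.21) and Fosl1 (0.14). For Fos, Fosb, Fosl2 and Junb exact two-sided permutation over arrays gave p = 0.1, the least this test can give with 3 arrays against 3; 7 members were compared with Jund and these p-values are not adjusted. Fos against Fosl2 was the widest contrast and is given as a description: the log2 signal of Fos minus that of Fosl2 was -1.15 ± 0.15 in FORKO and -4.01 ± 0.45 in WT ovaries (SD, n = 3 each).

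**Figure D4:**
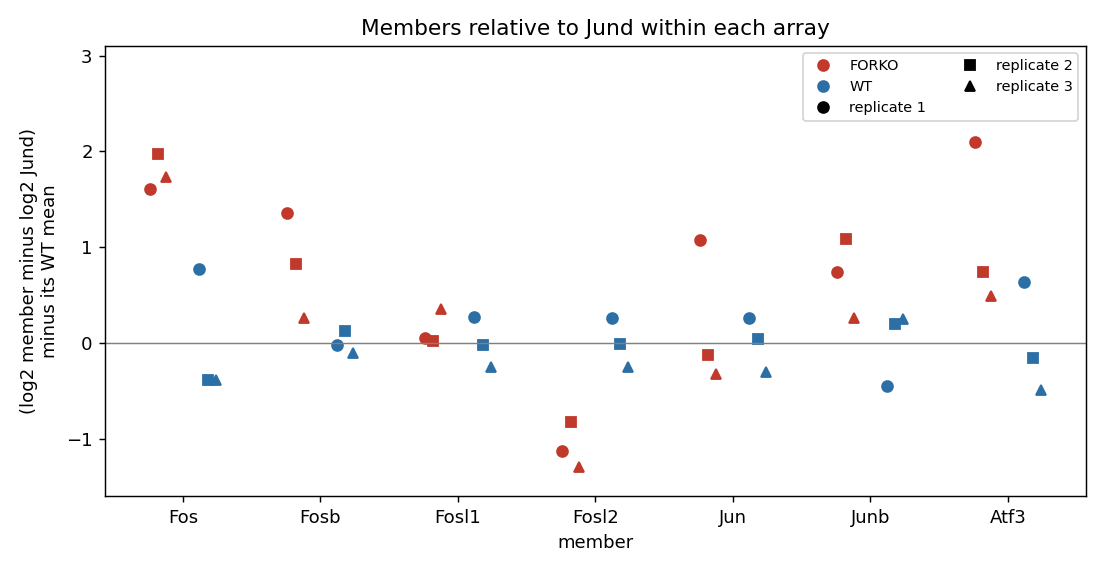
Log2 signal of each member minus that of Jund on the same array, shown as the deviation from its WT mean, for 3 FORKO (red) and 3 WT (blue) arrays, with the marker giving the replicate number. Fos has the largest mean difference (1.77) and Fosl2 lies below its WT arrays (-1.09), while Fosl1 and Jun overlap between the groups.

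Cell type markers that moved with these results are given as summed scaled signals, with the gene of the highest probe set counted once. The 9 surface epithelium markers, all of them above the dim filter, summed to 1394 to 2438 in FORKO and 836 to 950.1 in WT ovaries, so they were higher on the same arrays as Fos and Atf3. All 7 endothelial markers (6 above the filter, Pecam1 below it) summed to 822 to 918 and 651 to 703 in FORKO and WT ovaries. The 9 measured lymphocyte markers, of which Cd3e, Cd8a, Cd4, Cd79a and Ms4a1 were dim, summed to 691, 167 and 286 on FORKO arrays 1, 2 and 3 and to 109 to 157 in WT ovaries. The surface epithelium, endothelial and lymphocyte sums were higher on every FORKO array than on any WT array. Among the tested endothelial genes this held for Kdr and Vwf, while Tek, Cdh5, Emcn and Egfl7 overlapped. The log2 changes of Emcn (-0.28) and Egfl7 (-0.0049) were negative. Of the surface epithelium genes Wt1, Upk1b, Lgals7 and Msln overlapped, and Krt7, Krt8, Krt18, Krt19 and Upk3b did not. On FORKO replicate 1, where the lymphocyte sum was highest, Il7r read 311 and Ccl5 212. The groups of Cd3g overlapped, and those of Il7r, Ccl5 and Nkg7 did not. None of the 4 tested lymphocyte or 6 tested endothelial genes passed limma's test, whereas 2 of the 9 surface epithelium genes did. The 10 macrophage markers, with Itgam dim, summed to 5614 on FORKO replicate 1, where Atf3, Fosb and Jun were highest, to 2554 and 3279 on FORKO replicates 2 and 3, and to 2711 to 3035 in WT ovaries. The 11 oocyte markers, with Bmp15 dim, were lower on the same arrays as Fosl2, with sums of 479 to 734 in FORKO and 1228 to 1427 in WT ovaries. The 6 measured theca and interstitial markers, with Gli1 dim, summed to 8359 to 9468 in FORKO and 10023 to 11318 in WT ovaries. The oocyte and theca sums were lower on every FORKO array than on any WT array. Hsd3b1 made up the largest part of the theca sum. It read 3810, 5289 and 5882 on FORKO arrays 1, 2 and 3 and 6065 to 6739 in WT ovaries. Ptch1 (log2 change 0.12) and Cyp17a1 (0.58) changed the other way, and their groups overlapped, as did those of Star and Ephx2. None of the 5 tested theca genes passed limma's test, whereas 4 of the 10 tested oocyte genes did. The 11 granulosa markers, with Amh dim, summed to 7647 on FORKO replicate 1, where Fosl2 was lowest. Their sums were 16368 and 17381 on FORKO replicates 2 and 3 and 13718 to 17737 in WT ovaries. These genes did not move together. Amhr2, Kitl and Foxl2 were higher and Inha, Nr5a2 and Fshr lower on every FORKO array than on any WT array. Inhba, Fst, Hsd17b1 and Esr2 overlapped. On FORKO arrays 1, 2 and 3 Inhba read 54.2, 3867 and 3756 and Fst 42.0, 1832 and 1766. The 4 measured oviduct markers, with Foxj1 and Pax8 dim, summed to 93.7 to 306 in FORKO and 35.7 to 65.6 in WT ovaries. Sums of luteal, smooth muscle, stroma and erythroid markers overlapped between the groups, but not every gene in them did. The luteal genes Fdx1 (limma adjusted p = 0.0299), Cyp11a1, Akr1c18 and Ptgfr were lower on every FORKO array than on any WT array. Scarb1 and Sfrp4 overlapped. Sfrp4 read 28.9, 3521 and 3295 on FORKO arrays 1, 2 and 3 and 581 to 894 in WT ovaries. Among smooth muscle genes Actg2 (limma adjusted p = 0.0438), Myh11 and Cnn1 were lower on every FORKO array, and Acta2, Tagln and Smtn overlapped. In the stroma list Dcn and Pdgfra were higher and Lum was lower on every FORKO array, and none of these passed limma's test. FORKO replicate 1 was far below the rest in its luteal and smooth muscle sums. Its luteal sum was 6915, against 11060 and 11778 on FORKO replicates 2 and 3 and 10714 to 12089 in WT ovaries. Its smooth muscle sum was 1237, against 2575 and 2768 on FORKO replicates 2 and 3 and 2309 to 2742 in WT ovaries. No marker of these lists read 0 on any array. The part of these cells in the AP-1 results was not tested.

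Of the 6 gene lists around AP-1, 2 had members that passed the test, with 4 among other immediate early genes and 1 among genes of feedback and turnover, where 2.14% of all genes tested passed. Of 14 other bZIP dimer partners 11 were tested, and none passed limma's test (3 had an unadjusted p under 0.05, where 16.8% of all genes tested did). Their median change was -0.043. With spike scaling, which redraws the dim filter and so can change the genes tested, the median of the list was 0.30. Batf, a bZIP protein without a strong activation domain, read 38.4 ± 8.13 in FORKO and 20.9 ± 8.15 in WT ovaries (SD, n = 3 each). Maf, a large bZIP protein, read 799.5 ± 60.4 and 1215 ± 177 in FORKO and WT ovaries (SD, n = 3 each). It did not pass (limma adjusted p = 0.101) and passed with the replicate block (0.0432). Dimmer probe sets of Maf had changes of -0.58, -0.88, -0.077 and -0.39, and none passed (limma adjusted p of 0.304 to 0.925). Of 27 upstream kinases and promoter factors, 20 were tested and none passed limma's test (2 had an unadjusted p under 0.05), with a median of 0.087. Stat3, a factor activated by cytokines, read 259 ± 57.2 in FORKO and 169 ± 19.4 in WT ovaries, and Mrtfb, a co-activator of serum response factor, 361 ± 41.2 and 264 ± 52.1 in the same order (SD, n = 3 each); neither passed.

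Of 17 genes of feedback and turnover, 14 were tested, 1 rose and 13 did not pass (4 had an unadjusted p under 0.05), with a median of 0.19. The gene that rose was Dusp4, a nuclear phosphatase that switches off MAP kinases. It read 169, 78.8 and 95.2 on FORKO arrays 1, 2 and 3, against 23.7, 15.1 and 17.8 on WT arrays 1, 2 and 3. The groups were far apart, with a log2 change of 2.23 ± 0.29 (SE; limma adjusted p = 0.00907). With the replicate block Dusp6 also passed. Without WT replicate 2 the list's count was 0.

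Of 26 known AP-1 targets, 12 were tested and none passed limma's test (1 had an unadjusted p under 0.05), with a median of -0.069, and 0.092 with spike scaling. Mt1, which encodes a metallothionein, read 812 ± 157 in FORKO and 1249 ± 159 in WT ovaries (SD, n = 3 each; limma adjusted p = 0.138). Cd44, the hyaluronan receptor, read 196, 93.8 and 121 on FORKO arrays and 108, 75.5 and 106 on WT arrays, highest on FORKO replicate 1, and its groups overlapped (limma adjusted p = 0.517).

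Of 20 other immediate early genes, 19 were tested, and 4 rose (Klf4, Ccn2, Ccn1 and Btg2), 0 fell and 15 did not pass, where 1.30% of all genes tested rose. An unadjusted p under 0.05 was found for 12 of the 19, against 16.8% of all genes tested, and 17 of the 19 had a positive change, against 5313 of 11199. This list was chosen with earlier results of these data known, so these counts are a description and no independent test. The median of this list was 0.88, and 0.54 without FORKO replicate 1, when 6 passed; the count was 7 with the replicate block, 2 without FORKO replicate 3, and 0 and 1 without WT replicates 2 and 3. Klf4, a zinc-finger transcription factor, read 318 ± 99.8 in FORKO and 85.5 ± 29.9 in WT ovaries, and Ccn2, a matricellular protein also called connective tissue growth factor, 1277 ± 202 and 413 ± 126 in the same order (SD, n = 3 each; limma adjusted p = 0.0169 and 0.0102). A dimmer probe set of Klf4 had a change of 1.04 and did not pass (limma adjusted p = 0.281). All 12 stress and heat shock genes were tested and none passed limma's test (4 had an unadjusted p under 0.05), with a median of -0.17. The largest changes in that list were opposite in sign: Cebpd read 547, 191 and 209 on FORKO arrays against 132, 65.5 and 94.3 on WT arrays, and Cebpb read 159, 169 and 148 against 297, 517 and 237 in the same order. Both encode C/EBP bZIP factors, and neither pair of groups overlapped (limma adjusted p = 0.0946 and 0.0927). Both passed with the replicate block (0.0132 and 0.0385), and Cebpd also with FORKO replicate 1 left out. A dimmer probe set of Cebpb had a change of -0.38 and did not pass (limma adjusted p = 0.583).

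**Figure D5:**
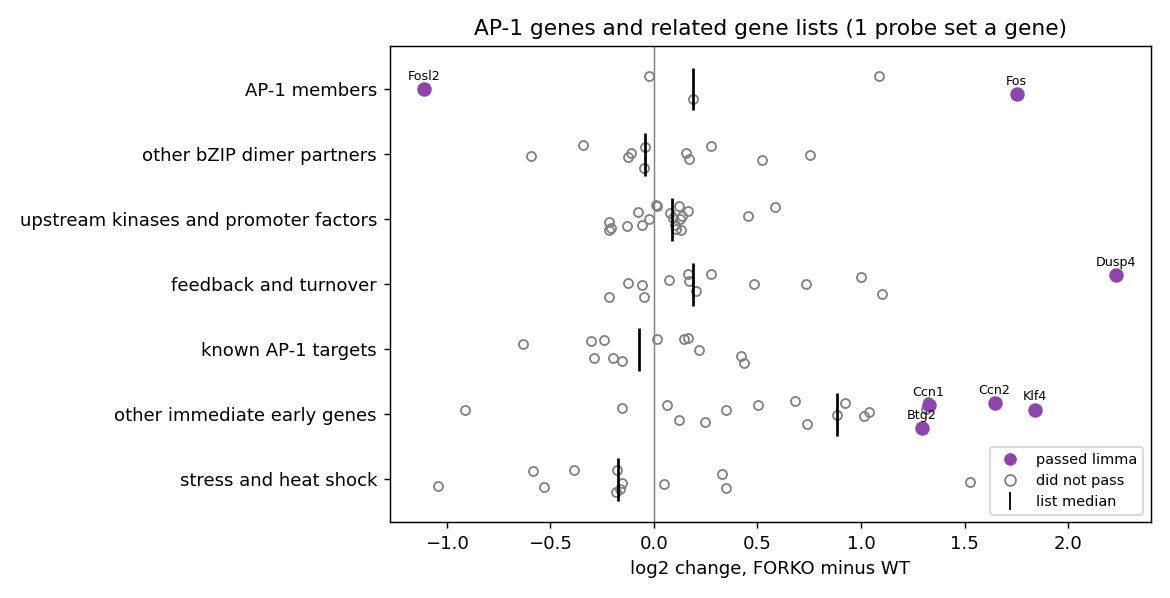
Log2 change, FORKO minus WT (x axis), of every tested gene of the AP-1 list and the 6 related lists (rows), 1 probe set a gene, with filled points for genes that passed limma's test and a bar at each list's median. Fos and Fosl2 lie on opposite sides of 0, and the list of other immediate early genes has the median farthest from 0 (0.88).

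Likeness to Fos and Junb was described by Pearson's r of log2 signals over the 6 arrays, among 10838 other named genes. These points share 2 groups, so a difference in the same direction raises r, as does a like spread within the groups. In all, 44 genes exceeded 0.95 for Fos and 23 for Junb, whose probe set lay below the dim filter. The 5 most like Fos were Zbtb8b (r = 0.998), Dmrta1 (0.995), Kansl3 (0.990), Tmeff2 (0.989) and Dnm2 (0.989). Of these Dmrta1, a DM-domain transcription factor, passed limma's test, reading 108 ± 26.1 in FORKO and 27.9 ± 11.6 in WT ovaries (SD, n = 3 each; limma adjusted p = 0.0161). The other 4 did not pass (adjusted p of 0.0814 to 0.334). The 5 most like Junb were Rasgrp2, Uhrf1bp1, Stard3nl, Gla and Ccdc134 (r = 0.998 to 0.972), and none of them passed limma's test (adjusted p of 0.352 to 0.694).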

How the data were processed

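Gene expression was measured in 3 FORKO and 3 WT ovary samples, 1 array each. The authors deposited 1 MAS5 signal per probe set, a linear array intensity, per the submitters' processing notes, which give no scaling target. Groups and replicate numbers came from the titles. No 2 arrays of a group were identical. Arrays were brought to a common 2% trimmed mean (factors 0.895 to 1.09) and moved to log2 with a pseudocount of 5.73, the lower quartile of all signals. Without the 64 control probe sets, those with a mean of at least 20.4 were tested with limma 3.58.1 under R 4.3.3 (a linear fit with trended eBayes, two-sided p adjusted by Benjamini-Hochberg over all 22506), a step tested on simulated data. Figures were drawn with matplotlib 3.10.9. The probe set with the highest mean stood for a gene in lists.

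The members and lists were chosen with earlier results of these data known. Named genes are all members, Fshr, in each list up to 2 with the largest change among those that passed (or among all tested), and the 5 most like Fos and Junb. Same-numbered arrays deviated together from their groups, with correlations of 0.195, 0.134 and 0.358, all above 0.1. Correlations between arrays of different number are not given, so these values do not show that the numbers mark pairs. Because of these values, a fit with the replicate number as a block is given as an alternative only. The main fit and the permutations treat the arrays as unpaired, because the labels tie the numbers to no litter or day. Alternatives covered normalization, pseudocount, dim filter, variance model, the replicate block and each array left out.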

Additional observations from a re-analysis of the deposited data

How the results depend on the processing

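With each array left out in turn, the log2 change was 1.51 to 2.09 for Fos, -1.20 to -0.97 for Fosl2 and -3.18 to -2.47 for Fshr, and 0 to 2 AP-1 probe sets or genes passed, none without WT replicates 2 or 3. The count over all probe sets was 63 to 859 in these fits, 590 with spike scaling, 221 with no dim filter and 691 with the replicate block. In the other 11 settings Fos (1.68 to 1.92) and Fosl2 (-1.18 to -0.93) passed each time. The replicate block let Atf3 pass at the same change (1.09) and changed no other call of a member. Signs turned for genes without a call: Jund read 0.15 with spike scaling and -0.17 to 0.091 with an array left out, Jun -0.13 to 0.39 and Jun relative to Jund -0.22 to 0.47. Among the related lists, the count was 1 for bZIP partners and 2 for stress genes with the block, and 2 for feedback genes and 1 for stress genes with spike scaling. The cause of these differences was not tested. Dim signals limit what can be read of Fosb, Fosl1 and Junb.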
